A study of Mus musculus with 9 samples.

Results

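Bone marrow cells that carried both a Tet2 deletion and a Flt3 internal tandem duplication (genotype Tet2-/-Flt3ITD, called mutant below) and that had been exposed to SHP099 were compared with wild-type (WT) cells that had received vehicle, in order to describe which transcript levels still differed from WT with the inhibitor present and which departed from WT only then. The comparison used all 3 SHP099-treated mutant libraries and all 3 vehicle-treated WT libraries, 6 of the 9 libraries of the series, chosen by their labels and compared as unpaired groups. The other 3 libraries, mutant cells with vehicle, served to tell departures already present before the drug from departures that appeared with it. Every group started from hind-limb marrow depleted of lineage-positive cells, was grown for 5 days with IL-3, IL-6 and SCF, and was on a C57BL/6 background, and SHP099 was given for 24 h. The mutant cultures came from individual mice according to the series description, and each mutant mouse number occurs once with vehicle and once with SHP099, whereas no individual mice are named for WT and no dose is given for the drug. The mutant alleles were compared with WT only in combination, and WT cells exposed to SHP099 were not analysed here, so whether a departure that appeared with the drug requires the mutant alleles cannot be told from these libraries.

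SHP099 holds the phosphatase SHP2, the product of Ptpn11, in its closed and inactive form; SHP2 relays signals from growth factor and cytokine receptors to RAS and on to the kinase ERK. FLT3 is such a receptor, and its internal tandem duplications, found in acute myeloid leukaemia, make it signal without ligand. TET2 oxidises 5-methylcytosine in DNA, and its loss is a frequent early event in myeloid neoplasms. Dual-specificity phosphatases, Sprouty and Spred proteins and the transcription factors Etv4, Etv5 and Egr1 are transcribed in response to ERK and report its output, and MYC drives the genes of ribosome assembly and nucleotide synthesis in dividing cells.

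The targeted gene was read first. Tet2 stood at 34.8, 31.8 and 33.1 CPM (counts relative to the scaled total of each library) in WT, at 14.7, 14.9 and 17 CPM in mutant cells with vehicle, and at 10.9, 13.2 and 13.1 CPM with SHP099. All 6 mutant libraries were below all WT libraries, and the SHP099 libraries were below the vehicle libraries of the same genotype. The log2 difference from WT was -1.42 ± 0.09 (SE; adjusted p = 3.7e-05) with SHP099 and -1.10 with vehicle, and the reads that remained were not assigned to exons here. Ptpn11 was at 284, 320 and 294 CPM with SHP099 against 347, 335 and 378 CPM in WT (log2 difference -0.24 ± 0.08, adjusted p = 0.046). That call was lost in 8 of 20 alternative analyses, some of which refitted only SHP099 against vehicle and could not lose it. Flt3 was low in every library, at 2.25, 3.01 and 1.72 CPM with SHP099 against 1.57, 1.69 and 2.5 CPM in WT, and its difference did not pass the test (log2 0.27 ± 0.29, adjusted p = 0.51). The duplication itself cannot be read from gene counts.

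The libraries held 27242168 to 45810089 counts each, and 13270 of 24421 gene symbols had enough counts to be tested. The culture was described as myeloid, and the marker lists were read against that label: summed over each list, mature neutrophil genes gave 29030 to 38340 CPM in WT and 30350 to 35320 CPM with SHP099, while lymphoid genes gave 13.8 to 14.6 and 14.2 to 17.7 CPM. The T cell gene Cd3e had 0 to 1 counts and the B cell gene Pax5 had 0 counts in any library. The 5 adult globin genes had 0 counts in all of them. This does not show that globin was absent, because reads shared by near-identical copies may not have been counted. In bulk RNA, fewer cells of a type and less RNA per cell cannot be told apart, which applies to every lineage gene below. The SHP099 library from mouse 3 stood apart: the ribosomal RNA precursor Rn45s took 4.33% of its counts, against 0.276% to 0.734% in the other 8.

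With SHP099, 4209 genes differed from WT at an adjusted p under 0.05 (31.7% of the genes tested), 2045 higher (15.4%) and 2164 lower (16.3%). The 3 treated and 3 WT libraries did not overlap in 47.9% of the genes. Most differences of the 4209 called genes were small: the median absolute log2 difference among these genes was 0.32, and 543 of them differed by more than 2-fold, 180 higher and 363 lower. The same test of vehicle-treated mutant cells against the same WT libraries called 4199 genes (31.6%), 2248 higher (16.9%) and 1951 lower (14.7%), a majority that turned with other scaling (1908 higher and 2098 lower with size factors by relative log expression, 1965 and 2086 with DESeq2, 1932 and 2085 without Rn45s) and when the 2 groups were fitted alone (1432 and 1976). SHP099 against vehicle within the mutant cells, the drug step, called 2890 genes (21.8%), 1169 higher (8.81%) and 1721 lower (13%). Vehicle and SHP099 libraries of a number came from 1 mouse, which this fit leaves out. With the mouse as a block the drug step called 3598 genes when all 9 libraries were fitted and 5563 genes (2791 higher, 2772 lower) when the 6 mutant libraries were fitted alone; these are called the blocked fits below. Without SHP099 replicate 3 the comparison with WT called 2826 genes, 1080 higher and 1746 lower, and the drug step 1767. The 3 comparisons share libraries pairwise, so their counts are given side by side and were not tested against each other. Over all libraries, the first principal component (43.3% of the variance) placed all 3 WT libraries apart from the 6 mutant libraries, whether or not these had received the drug.

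The genes were sorted by their calls in the 3 comparisons. The largest class, 2053 genes, was called against WT in the same direction with vehicle and with SHP099 (917 higher, 1136 lower), and 411 of them differed from WT by more than 2-fold with SHP099 (122 higher, 289 lower). Within it the drug step was not called for 1828 genes, ran toward WT for 120 genes, whose median absolute log2 difference from WT was 0.47 with vehicle and 0.24 with SHP099, and ran further away for 105 genes, for which it was 0.29 with vehicle and 0.60 with SHP099. A second class, 1014 genes or 7.64% of those tested, departed newly: it was called with SHP099 and on the drug step but not with vehicle (469 higher, 545 lower). These departures were small, with a median absolute log2 difference of 0.27, and 37 genes passed 2-fold. For 930 of the 1014 the 95% interval of the vehicle difference lay within 0.5 log2 units of WT, and for the other genes a larger departure before the drug was within the interval. That bound is wider than the median departure of 0.27, so it does not show that these genes were at WT level before the drug. Another 958 genes (7.22%) were called against WT with vehicle, moved toward WT on the drug step and were no longer called with SHP099. Of these, 650 had been higher and 308 lower with vehicle, and for 910 the interval of the SHP099 difference lay within 0.5 log2 units. The vehicle interval had already lain within that bound for 738 of the 958, so the bound does not show a full return to WT. In 151 genes the difference changed sides: 34 had been lower and were above WT with SHP099, and 117 had been higher and were below. In the blocked fits 1145 and 1473 genes departed newly, 1102 and 1447 were no longer called and moved toward WT, and among the genes still different 205 and 392 moved toward WT, 164 and 301 further away. These memberships follow from the thresholds and carry no test of their own. The same sorting was applied to lists of genes by pathway and cell type, drawn as the share of each list called with and without the drug. The newly departing class shrank to 592 genes (206 higher, 386 lower) without SHP099 replicate 3, and the class no longer called to 634 without it, 597 without vehicle replicate 1 and 573 without vehicle replicate 3.

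**Figure D1:**
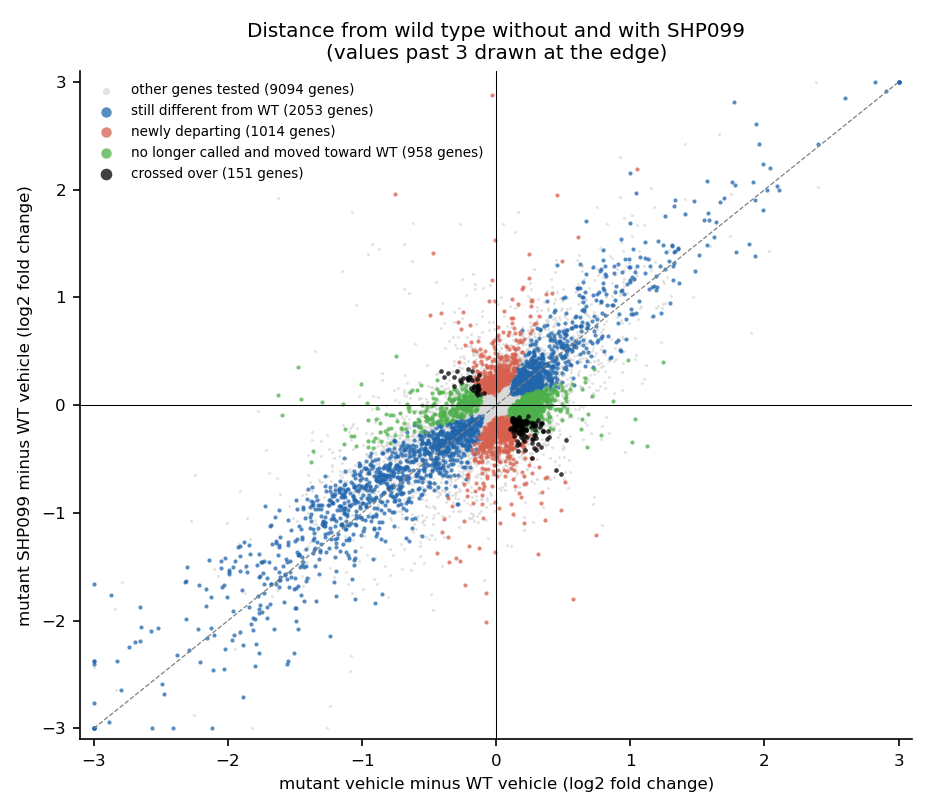
Each point is a gene; the horizontal axis is the log2 difference of vehicle-treated mutant cells from WT and the vertical axis that of SHP099-treated mutant cells from the same WT libraries, with values beyond 3 drawn at the edge and a dashed line where both are equal. The 2053 genes still different (blue) lie in the upper right and lower left, the 1014 newly departing genes (red) near zero on the horizontal axis, the 958 genes no longer called (green) near zero on the vertical axis and the 151 that changed sides (black) in the other corners.

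**Figure D2:**
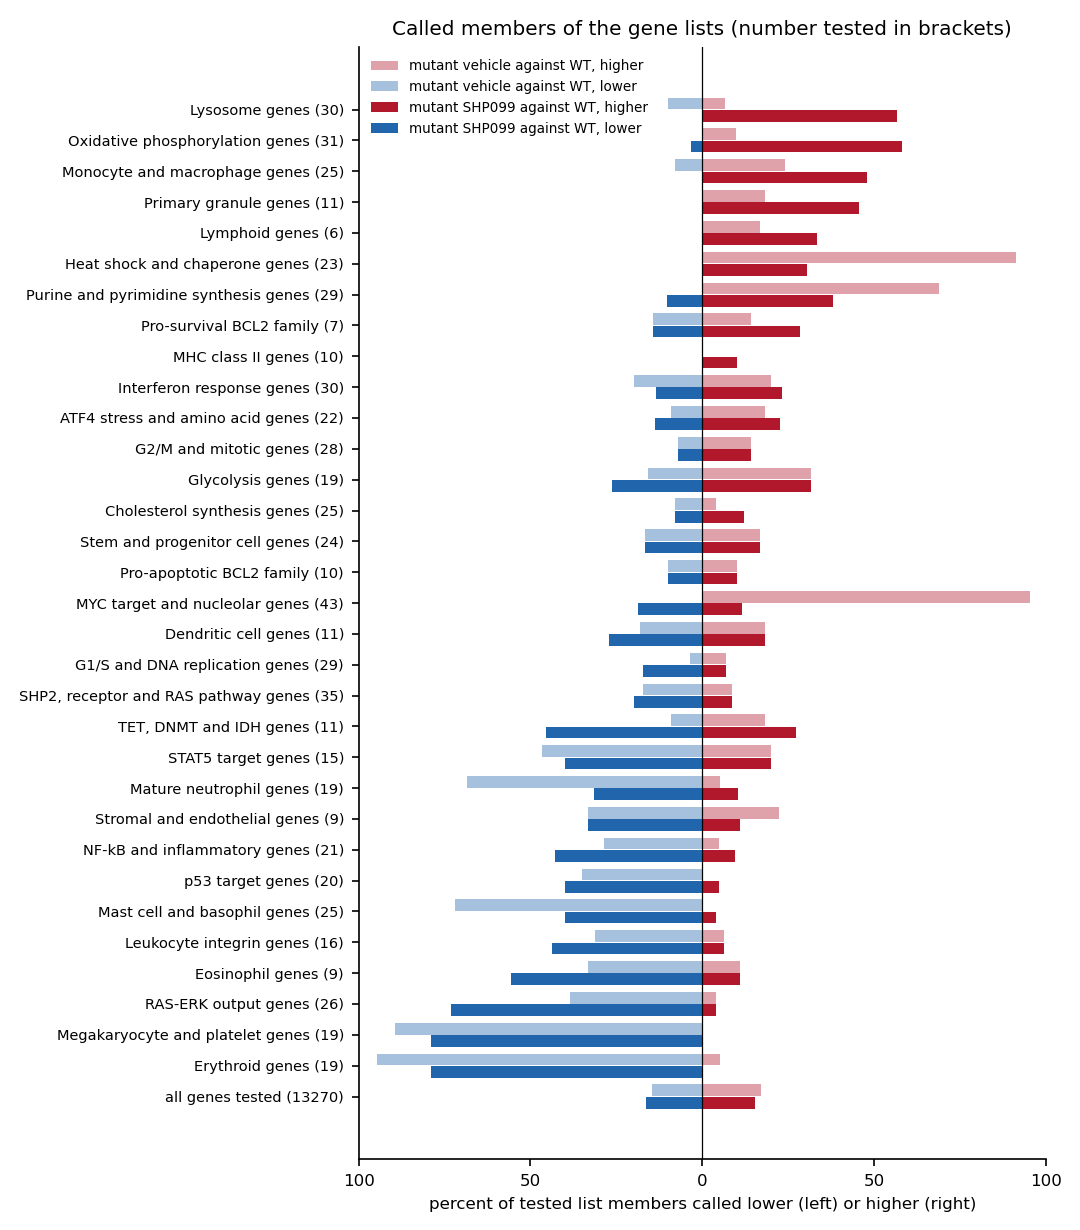
Percent of the tested members of each list that were called lower (left) or higher (right) than WT, pale for vehicle-treated and dark for SHP099-treated mutant cells, with the number of tested members in brackets and all 13270 genes in the last row. Megakaryocyte and erythroid bars stay long with SHP099, MYC target and chaperone bars shorten, and lysosome, oxidative phosphorylation and monocyte bars lengthen.

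RAS-ERK output genes were the signalling list with the most genes below WT. Of 26 tested members, 19 were lower than WT with SHP099 and 1, Myc, was higher, with a median log2 difference of -0.63. Over all tested genes 16.3% were lower and 15.4% higher, and the median was 0.00. With vehicle, 10 were lower and 1 higher, and the drug step lowered 11 and raised none (12 lowered and 1 raised, or 18 and 1, in the blocked fits). The members summed to 1012 to 1144 CPM in WT, 886 to 984 CPM with vehicle and 718 to 835 CPM with SHP099, without overlap between any of the 3 groups. Without SHP099 replicate 3, 15 members stayed lower than WT.

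Of the 19 lower members, 8 departed newly, 9 were already lower with vehicle, and 2, Fos and Kcnn4, were called on neither step alone. Spred2, a membrane inhibitor of RAF activation, was at 26.7, 30.8 and 26.9 CPM in WT, 26.8, 28.7 and 29.5 CPM with vehicle and 17.7, 18.8 and 19 CPM with SHP099. The 3 SHP099 libraries lay below the other 6, which overlapped, and the difference from WT was -0.61 ± 0.07 (adjusted p = 0.00055) with SHP099 and 0.01 with vehicle. Etv5, an ETS-family transcription factor induced by ERK, ran 9.32, 13.7 and 12.4 CPM in WT, 12.4, 12.7 and 13.8 CPM with vehicle and 6.82, 7.37 and 6.81 CPM with SHP099 (-0.75 ± 0.13, adjusted p = 0.0027). Spry4, a Sprouty feedback inhibitor of receptor signalling, was at 1.89, 2.77 and 2.48 CPM in WT and 0.684, 1.04 and 0.874 CPM with SHP099 (-1.45 ± 0.21, adjusted p = 0.0015), and the vehicle libraries, at 1.65 to 2.12 CPM, overlapped WT. The related ETS factor Etv4 (-1.32 ± 0.24), the feedback inhibitor Spred1 (-0.35 ± 0.10), Spry2 (-0.31 ± 0.11), the AP-1 subunit Fosl1 (-0.65 ± 0.20) and the receptor kinase Epha2 (-1.67 ± 0.40) made up the rest of the 8 new departures. The calls of Spry2 and Fosl1 were each lost in 8 of 20 alternatives.

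Dusp6, the cytoplasmic phosphatase that switches ERK off, was low before the drug and lower with it. It was at 50, 59.8 and 58.2 CPM in WT, 45, 44.2 and 48.6 CPM with vehicle and 30, 29.5 and 29.4 CPM with SHP099, so that the 3 groups did not overlap. The difference from WT was -0.29 with vehicle and -0.92 ± 0.07 (adjusted p = 7.2e-05) with SHP099. The early-response factor Egr1 ran 186, 222 and 205 CPM in WT, 112, 81.5 and 66.5 CPM with vehicle and 69.9, 41.3 and 27.5 CPM with SHP099. It lay far below WT in all 6 mutant libraries (-2.14 ± 0.30, adjusted p = 0.0011, with SHP099), and it was lower with SHP099 than with vehicle in all 3 mice. That drug step of -0.90 had an adjusted p of 0.052 without the block and 0.00027 with it in the 9-library fit (-0.97). Dusp4 (at 3.75 to 4.67 CPM against 7.64 to 9.06 CPM in WT), Dusp5 (-0.44 ± 0.09), Egr2 (-1.14 ± 0.24), Egr3 (-1.42 ± 0.30), Ier2 (-0.61 ± 0.10), Ier3 (-0.30 ± 0.06) and Phlda1 (-0.78 ± 0.11) were likewise below WT with vehicle and with SHP099. Their drug step was not called without the block; with the 6 mutant libraries fitted alone Egr3 and Ier2 fell and Phlda1 rose. Myc itself was at 222, 241 and 231 CPM in WT, 340, 311 and 325 CPM with vehicle and 290, 276 and 287 CPM with SHP099. The treated libraries lay between the other groups without overlap, still above WT by 0.30 ± 0.05 (adjusted p = 0.0018).

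Of 35 tested genes upstream in the pathway, which encode cytokine receptors, adaptors, RAS proteins and their exchange factors, 3 were higher and 7 lower than WT with SHP099, close to the background, and 2 and 3 without WT replicate 2. Csf2ra, the alpha chain of the GM-CSF receptor, was at 172, 158 and 146 CPM in WT and 73.9, 79.4 and 78.8 CPM with SHP099 (-1.04 ± 0.07, adjusted p = 4.4e-05), and the vehicle libraries were below WT too, at 77.1 to 87.9 CPM. Cbl, a ubiquitin ligase for activated receptors, was the only newly departing gene of the list (-0.32 ± 0.09). Of 15 tested genes that STAT5 is known to induce, 3 were higher and 6 lower, and 1 and 4 without SHP099 replicate 2. Osm, which encodes the cytokine oncostatin M, was at 147, 152 and 165 CPM in WT, 69.8, 74.1 and 81.3 CPM with vehicle and 72.5, 73.6 and 78.2 CPM with SHP099, and it kept its deficit (-1.05 ± 0.06, adjusted p = 3.5e-05) while its drug step was not called (-0.01 ± 0.06). The kinase gene Pim3 newly fell below WT (-0.53 ± 0.06), and Ccnd2, cyclin D2 of the G1 phase, crossed from 0.35 to -0.24 ± 0.06.

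**Figure D3:**
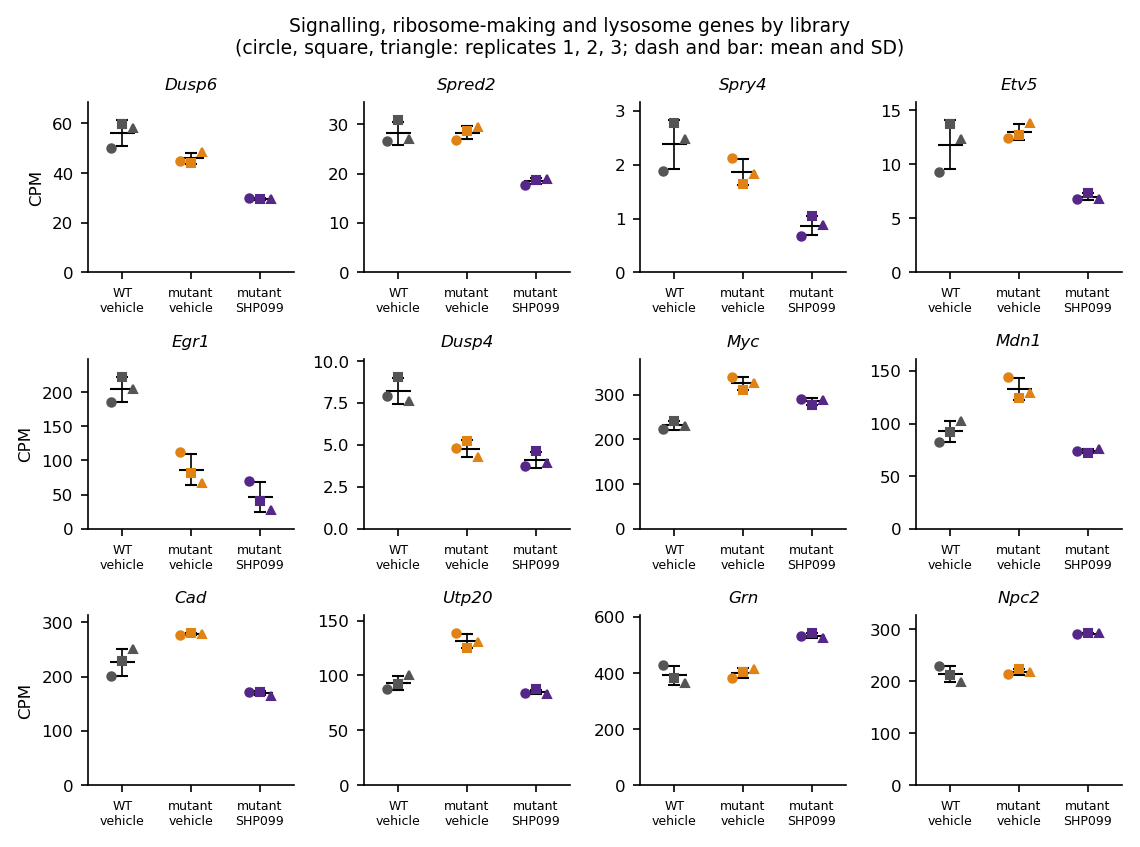
CPM of 12 genes in each library, with circles, squares and triangles for replicates 1, 2 and 3 and a dash and bar for mean and SD of each group of 3. Dusp6, Spred2, Spry4 and Etv5 are lowest with SHP099, Egr1 and Dusp4 are low in both mutant groups, Myc stays above WT, Mdn1, Cad and Utp20 are highest with vehicle, and Grn and Npc2 are highest with SHP099.

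Genes of ribosome assembly and other MYC targets behaved differently from the feedback genes. Of 43 tested members, 41 were higher than WT with vehicle and none lower. With SHP099, 5 were higher and 8 lower, and the median log2 difference was -0.01. The share of the list called with SHP099, 30.2%, was close to the 31.7% of all tested genes. The drug step lowered 34 members and raised none (37 and 40 lowered in the blocked fits), and 22 of them returned to levels not called against WT. The list summed to 8235 to 9091 CPM in WT, 10770 to 11040 CPM with vehicle and 8519 to 8785 CPM with SHP099, and the SHP099 range lay within that of WT. Utp20, a component of the processome that matures small-subunit ribosomal RNA, was at 87.4, 92.1 and 100 CPM in WT, 138, 125 and 131 CPM with vehicle and 84.3, 87.5 and 83.5 CPM with SHP099. Its difference from WT went from 0.49 to -0.13, which did not pass the test (adjusted p = 0.095).

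Some members passed below WT, 8 of 43, a share close to the 16.3% of all tested genes that were lower. Mdn1, the giant ATPase that remodels 60S ribosome precursors, ran 82.7, 91.9 and 103 CPM in WT, 144, 125 and 129 CPM with vehicle and 74.4, 72 and 75.8 CPM with SHP099. All treated libraries were below all WT libraries (-0.32 ± 0.08, adjusted p = 0.013). Cad, the enzyme that starts pyrimidine synthesis, ran 201, 228 and 250 CPM in WT, 276, 279 and 278 CPM with vehicle and 171, 172 and 165 CPM with SHP099 (-0.42 ± 0.07, adjusted p = 0.0022). The nucleolar factor Mybbp1a (-0.17 ± 0.04), the snoRNP core protein Nop56 (-0.17 ± 0.04), the ribosome export factor Rrp12 (-0.22 ± 0.05), Tcof1 (-0.18 ± 0.04), the coactivator Pprc1 (-0.24 ± 0.05) and hexokinase Hk2 (-0.16 ± 0.04) completed the 8. The calls depended on how transcript length was handled: with the trend over transcript length and GC content removed, 2 members were lower than WT in place of 8, and Mdn1, Mybbp1a, Rrp12, Tcof1, Pprc1 and Hk2 were no longer called. Npm1 (0.21 ± 0.06), the snoRNP proteins Nop58 (0.15 ± 0.05) and Dkc1 (0.17 ± 0.05), and Wdr12 (0.21 ± 0.03) and Pes1 (0.17 ± 0.04) of the large-subunit assembly complex stayed above WT, and without SHP099 replicate 3, or without WT replicate 2, only 1 member was higher.

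Promoters of 3 genes of this list are shown because each holds the E-box CACGTG, the preferred site of MYC and MAX, within 40 bases downstream of the annotated start. The RefSeq promoters (GRCm38.p6, 250 bases before to 50 after the start) of Mdn1 at chr4:32656869-32657168 (plus strand), Mybbp1a at chr11:72441077-72441376 (plus strand) and Utp20 at chr10:88826765-88827064 (minus strand) read as follows, with motif matches in capitals; in Mdn1 the capitals 211 bases before the start are the reverse complement of AGATAAG, a motif taken up below.
Mdn1: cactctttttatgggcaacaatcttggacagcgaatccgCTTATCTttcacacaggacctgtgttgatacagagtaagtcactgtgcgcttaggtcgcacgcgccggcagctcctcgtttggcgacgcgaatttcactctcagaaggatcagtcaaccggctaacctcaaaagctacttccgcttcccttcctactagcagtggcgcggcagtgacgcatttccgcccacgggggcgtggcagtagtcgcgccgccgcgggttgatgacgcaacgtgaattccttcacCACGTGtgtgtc
Mybbp1a: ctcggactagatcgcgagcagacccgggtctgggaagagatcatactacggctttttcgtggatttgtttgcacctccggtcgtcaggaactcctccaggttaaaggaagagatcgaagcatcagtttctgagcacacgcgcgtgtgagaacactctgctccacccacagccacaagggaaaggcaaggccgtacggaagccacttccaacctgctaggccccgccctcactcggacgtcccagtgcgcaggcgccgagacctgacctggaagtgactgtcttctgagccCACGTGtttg
Utp20: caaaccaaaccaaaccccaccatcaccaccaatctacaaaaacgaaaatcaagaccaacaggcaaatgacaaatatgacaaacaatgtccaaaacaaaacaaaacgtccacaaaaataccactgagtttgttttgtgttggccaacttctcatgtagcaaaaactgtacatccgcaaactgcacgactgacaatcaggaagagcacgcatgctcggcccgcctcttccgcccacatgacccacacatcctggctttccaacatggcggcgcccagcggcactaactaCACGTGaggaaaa
CACGTG, which reads the same on both strands, occurred in 17.9% of the promoters of this list (7 of 39) and in 9.73% of the 12773 promoters of all tested genes that had one. Its first base lay 38 bases after the start in Mdn1, 40 in Mybbp1a and 37 in Utp20. Other motifs searched in the same promoters were CCGGAAGT (12.8%, against 7.7% of all), TTCNNNGAA (12.8%, against 7.01%) and AGATAAG (2.56%, against 1.96%). TGACTCA (3.91% of all) and TTGCGCAA (0.305% of all) were at 0%. CACGTG also occurred in 14.3% of the promoters of the RAS-ERK output list (3 of 21), so it was not particular to this list. These matches are descriptions of the sequence and not measured binding sites.

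Of 29 tested enzymes of purine and pyrimidine synthesis, 20 were higher than WT with vehicle and 11 with SHP099, and 3, Cad, Pfas and Mthfd1l, were lower. Hprt, which salvages purine bases, was at 169, 164 and 165 CPM in WT, 206, 192 and 198 CPM with vehicle and 208, 222 and 223 CPM with SHP099, and it moved further up (0.39 ± 0.04, adjusted p = 0.00033), a drug step that missed the threshold with the block in the 9-library fit (adjusted p = 0.052). Gmps, which makes guanylate, stayed up with no drug step called (0.30 ± 0.05). Of 23 tested chaperone genes, 21 were higher than WT with vehicle and 7 with SHP099, among them the stress-inducible Hspa1a (0.95 ± 0.19), the mitochondrial Hspa9 (0.18 ± 0.04) and 5 subunits of the chaperonin that folds actin and tubulin. Leaving out WT replicate 1 gave 3 higher chaperone genes, WT replicate 2 gave 4, and SHP099 replicate 2 or 3 gave 2. Removing the length and GC trend gave 3, and the chaperonin subunits Cct2 and Tcp1 were then no longer called. Replication and mitosis genes were not called more often than the table as a whole. The share called was 24.1% of G1/S genes and 21.4% of G2/M genes, against 31.7% of all tested genes. Of 29 G1/S genes 2 were higher and 5 lower, and of 28 G2/M genes 4 were higher and 2 lower (2 and 1 without SHP099 replicate 3). Mki67, the proliferation marker Ki-67, newly fell to 910, 884 and 852 CPM from 1137, 1057 and 1057 CPM in WT (-0.30 ± 0.06), while Birc5, the mitotic survival protein survivin, newly rose (0.15 ± 0.03).

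Platelet-lineage genes stayed below WT with SHP099. Of 19 tested megakaryocyte and platelet genes, 15 were lower than WT with SHP099 and none higher, all 15 of them already lower with vehicle, and the median log2 difference was -0.70. The drug step raised 2 of the 19, or 13 and 17 in the blocked fits, and lowered none. Their sum was 8217 to 9900 CPM in WT, 5159 to 6147 CPM with vehicle and 5607 to 6940 CPM with SHP099, so both mutant groups lay below WT and overlapped each other. Pf4, the chemokine platelet factor 4, was at 723, 697 and 854 CPM in WT, 333, 402 and 307 CPM with vehicle and 446, 524 and 522 CPM with SHP099. The treated libraries lay between the 2 other groups without overlap (-0.61 ± 0.11, adjusted p = 0.0037), where vehicle was at -1.13. Gp1bb, a subunit of the von Willebrand factor receptor, also moved part of the way, from 31.1, 46.1 and 41.7 CPM with vehicle to 51.3, 58.5 and 74.6 CPM with SHP099, against 104, 105 and 108 CPM in WT (-0.78 ± 0.15, adjusted p = 0.0044). The integrin chains Itga2b (-0.70 ± 0.12) and Itgb3 (-0.82 ± 0.15), which form the fibrinogen receptor, Vwf (-0.88 ± 0.18), the collagen receptor Gp6 (-0.76 ± 0.21), and the podoplanin receptor Clec1b (-0.97 ± 0.22) were below WT too. No drug step was called for them without the block, and with the 6 mutant libraries fitted alone Itga2b, Itgb3, Gp6 and Clec1b rose.

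Erythroid genes stayed below WT as well. Of 19 tested members, 15 were lower than WT with SHP099 and none higher, with a median log2 difference of -1.36, against 18 lower and 1 higher with vehicle. The drug step raised 1 and lowered 1, and in the blocked fits it raised 3 and lowered 1, or raised 10 and lowered 2. Epor, the erythropoietin receptor, was at 20.4, 24.2 and 32.3 CPM in WT, 9.39, 13.6 and 7.61 CPM with vehicle and 10.6, 14.1 and 10.3 CPM with SHP099. Both mutant groups lay below WT and overlapped each other (-1.14 ± 0.23, adjusted p = 0.0054, with SHP099). Klf1, the master transcription factor of red cells, was at 23.8, 28.4 and 41.9 CPM in WT and 9.8, 14.3 and 7.17 CPM with SHP099 (-1.59 ± 0.33, adjusted p = 0.0064). Gata1, the zinc finger factor of both lineages, differed from WT by -0.67 ± 0.12, its cofactor Zfpm1 by -0.98 ± 0.18, and the membrane genes Rhd (-1.87 ± 0.38), Ermap (-2.18 ± 0.36) and Ank1 (-1.99 ± 0.42) were lower too. The WT libraries differed among themselves, with replicate 3 highest for Epor, Klf1 and Rhd, and without SHP099 replicate 3 10 erythroid genes were lower than WT.

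Promoters of both lineages are shown because they hold AGATAAG, a site of the kind that GATA factors bind. They are, from RefSeq (GRCm38.p6), Epor at chr9:21963527-21963826 (minus strand), Rhd at chr4:134864286-134864585 (plus strand), Clec1b at chr6:129397047-129397346 (plus strand) and Gp6 at chr7:4397695-4397994 (minus strand), with the match in capitals, as itself or as its reverse complement CTTATCT.
Epor: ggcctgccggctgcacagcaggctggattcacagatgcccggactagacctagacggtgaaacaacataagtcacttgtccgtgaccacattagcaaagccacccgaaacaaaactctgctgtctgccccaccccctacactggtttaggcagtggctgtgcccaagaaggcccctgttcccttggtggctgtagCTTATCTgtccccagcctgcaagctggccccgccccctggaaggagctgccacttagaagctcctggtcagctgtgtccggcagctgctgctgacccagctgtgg
Rhd: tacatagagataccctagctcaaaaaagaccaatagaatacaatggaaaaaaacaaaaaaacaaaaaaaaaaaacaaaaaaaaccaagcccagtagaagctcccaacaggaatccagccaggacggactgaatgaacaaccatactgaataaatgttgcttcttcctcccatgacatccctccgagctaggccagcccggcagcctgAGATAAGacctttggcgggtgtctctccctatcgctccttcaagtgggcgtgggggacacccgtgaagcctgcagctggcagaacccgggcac
Clec1b: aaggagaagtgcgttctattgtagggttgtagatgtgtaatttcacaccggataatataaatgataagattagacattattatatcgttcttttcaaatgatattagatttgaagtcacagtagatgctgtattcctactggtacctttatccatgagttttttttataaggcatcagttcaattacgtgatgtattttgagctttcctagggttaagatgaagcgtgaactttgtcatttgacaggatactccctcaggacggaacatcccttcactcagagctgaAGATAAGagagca
Gp6: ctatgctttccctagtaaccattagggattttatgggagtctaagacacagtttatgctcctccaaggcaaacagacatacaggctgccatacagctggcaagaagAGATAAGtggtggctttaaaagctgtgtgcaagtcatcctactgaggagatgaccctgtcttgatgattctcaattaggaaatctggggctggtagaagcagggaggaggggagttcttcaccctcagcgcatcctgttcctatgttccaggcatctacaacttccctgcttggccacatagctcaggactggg
The match began 55 bases before the start in Epor, 43 before in Rhd, 144 before in Gp6 and 37 after it in Clec1b. Counted on both strands, the motif occurred in 12.5% of the promoters of the erythroid list (2 of 16), in 13.3% of those of the megakaryocyte list (2 of 15), in 3.71% of those of genes still lower than WT and in 1.96% of the promoters of all tested genes. All 4 genes shown were below WT with vehicle and with SHP099.

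Mast cell genes split. Of 25 tested mast cell and basophil genes, 10 were lower than WT with SHP099 and 1 higher, with a median log2 difference of -0.29, compared with 18 lower and none higher with vehicle. The drug step raised 9 of them, or 16 and 19 in the blocked fits, and lowered none. Cpa3, the mast cell carboxypeptidase, ran 749, 808 and 774 CPM in WT, 469, 337 and 445 CPM with vehicle and 764, 635 and 733 CPM with SHP099, so the treated libraries overlapped WT (-0.13, adjusted p = 0.41) where vehicle had been at -0.90. Cma1, the chymase, ran 115, 96.4 and 102 CPM in WT, 27.4, 17.6 and 18.8 CPM with vehicle and 48.3, 33.7 and 28.6 CPM with SHP099. It rose on the drug step and still lay below WT (-1.50 ± 0.20, adjusted p = 0.00091). Fcer1a, the IgE-binding chain of the high-affinity receptor, newly rose above WT, at 55.2, 42.5 and 56.3 CPM against 28.7, 36.5 and 21.6 CPM (0.83 ± 0.19, adjusted p = 0.0094). The tryptases Tpsb2 (-1.12 ± 0.24) and Tpsab1 (-3.05 ± 0.36) stayed low, although near-identical copies make the split of reads between them uncertain, and so did Hdc, which makes histamine (-0.80 ± 0.11), Gzmb (-1.12 ± 0.19) and the IL-33 receptor Il1rl1 (-0.54 ± 0.10).

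Of 9 tested eosinophil genes, 5 were lower than WT and 1, Siglecf, higher (0.95 ± 0.15). The list summed to 569 to 642 CPM in WT, 237 to 300 CPM with vehicle and 210 to 250 CPM with SHP099. Epx, eosinophil peroxidase, ran 201, 229 and 224 CPM in WT, 79.3, 119 and 111 CPM with vehicle and 71.4, 64.1 and 77.8 CPM with SHP099. All 3 groups were separate, and the distance from WT grew from -1.08 to -1.61 ± 0.14 (adjusted p = 0.00012). Prg2, the granule major basic protein, was at 305, 350 and 310 CPM in WT and 129, 102 and 112 CPM with SHP099 (-1.50 ± 0.10, adjusted p = 3.9e-05), with vehicle at 113 to 136 CPM.

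Neutrophil genes came part of the way back in number, and their summed level returned to the WT range. The mature neutrophil list summed to 29030 to 38340 CPM in WT, 20990 to 21670 CPM with vehicle and 30350 to 35320 CPM with SHP099. Of 19 tested mature neutrophil genes, 13 were lower than WT with vehicle and 6 with SHP099, where 2 were higher. The median log2 difference of the list was -0.75 with vehicle and still -0.30 with SHP099. Without WT replicate 2, SHP099 replicate 2 or SHP099 replicate 3, 1 was higher and 3 lower. With the replicate number as a block in every group, 1 was higher and 10 lower. The drug step raised 5, or 12 and 18 in the blocked fits, and lowered none. Cd177, a neutrophil surface glycoprotein, was at 469, 415 and 303 CPM in WT, 150, 131 and 99.5 CPM with vehicle and 210, 166 and 119 CPM with SHP099 (-1.26 ± 0.22, adjusted p = 0.0033). Mmp8, neutrophil collagenase, went the other way, at 179, 206 and 148 CPM in WT and 306, 388 and 486 CPM with SHP099 (1.15 ± 0.22, adjusted p = 0.0047). Of 11 primary granule genes, which mark promyelocytes, 5 were higher than WT and none lower, and 3 were higher without WT replicate 3, without SHP099 replicate 3 or with the length and GC trend removed. Ctsc, a cathepsin that activates granule proteases, was 0.96 ± 0.17 above WT. Nkg7, a granule membrane protein with the smallest p of the list, was at 111, 113 and 106 CPM in WT, 107, 107 and 111 CPM with vehicle and 177, 166 and 161 CPM with SHP099. The 6 libraries without the drug overlapped and the treated ones lay clear above them (0.61 ± 0.04, adjusted p = 6.7e-05). Among 24 tested stem and progenitor genes, 4 were higher and 4 lower, a share of 33.3% against 31.7% of all tested genes. Cd34 moved further above WT, from 39.2, 49.4 and 48.1 CPM in WT and 81.8, 76.5 and 79.1 CPM with vehicle to 106, 91.3 and 102 CPM (1.13 ± 0.09, adjusted p = 7.2e-05).

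Monocyte genes were higher than WT with SHP099. Of 25 tested members, 12 were higher and none lower, with a median log2 difference of 0.41, against 6 higher and 2 lower with vehicle, and the sum of the list was 4139 to 4322 CPM with SHP099 against 2738 to 3585 CPM in WT. Irf8, the transcription factor that directs progenitors toward monocytes, ran 16.9, 16.5 and 19.2 CPM in WT, 32.2, 49.8 and 39.2 CPM with vehicle and 46.5, 56 and 49.2 CPM with SHP099. It was above WT in all 6 mutant libraries (1.52 ± 0.15, adjusted p = 0.00023), and its drug step, not called without the block, was called in both blocked fits (0.34 in the 9-library fit, adjusted p = 0.0097). The drug step raised 3 members of the list, or 7 and 20 in the blocked fits. Ly6c2, the surface marker of inflammatory monocytes, newly rose, at 837, 789 and 672 CPM in WT, 771, 688 and 803 CPM with vehicle and 1247, 1048 and 1150.4 CPM with SHP099 (0.58 ± 0.09, adjusted p = 0.0021). Csf1r, the M-CSF receptor (1.07 ± 0.22), F13a1 (1.05 ± 0.24), the IgG receptor Fcgr1 (1.03 ± 0.21) and the lipopolysaccharide co-receptor Cd14 (0.70 ± 0.12, newly) were also above WT, while Ccr2 (0.88 ± 0.26) and Apoe (1.06 ± 0.27) were called on neither step alone without the block and rose on the drug step with the 6 mutant libraries fitted alone.

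**Figure D4:**
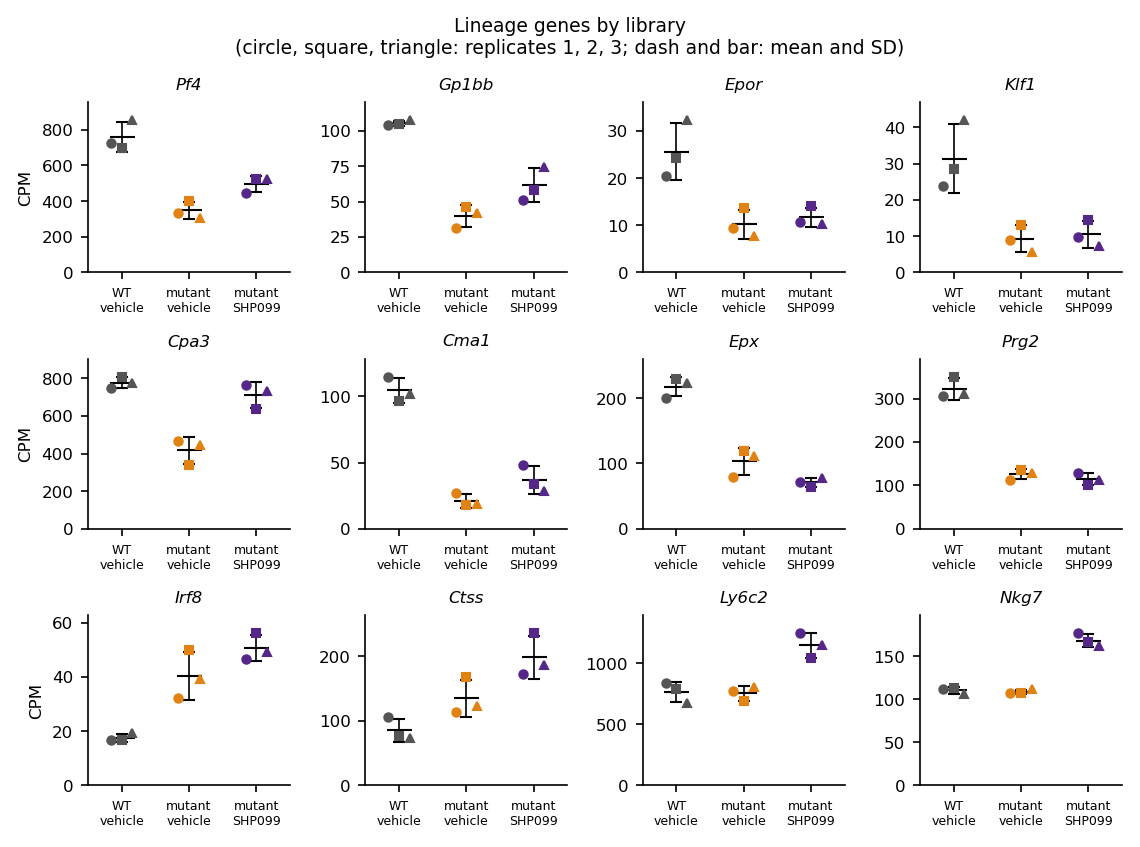
CPM of 12 lineage genes in each library, with circles, squares and triangles for replicates 1, 2 and 3 and a dash and bar for mean and SD of each group of 3. Pf4 and Gp1bb lie between vehicle and WT with SHP099, Epor, Klf1, Cma1, Epx and Prg2 stay below WT, Cpa3 overlaps WT, Irf8 and Ctss are above WT, and Ly6c2 and Nkg7 are above both other groups with SHP099.

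Lysosomal genes rose above WT with the drug. Of 30 tested members, 17 were higher than WT with SHP099 and none lower, with a median log2 difference of 0.26, whereas with vehicle 2 were higher and 3 lower. The drug step raised 14, or 17 and 26 in the blocked fits, and lowered none, and 9 of the 17 were new departures. The list summed to 7738 to 8963 CPM in WT, 7722 to 8957 CPM with vehicle and 10410 to 10970 CPM with SHP099. Grn, which encodes progranulin, ran 428, 381 and 365 CPM in WT, 382, 404 and 415 CPM with vehicle and 533, 542 and 526 CPM with SHP099. The treated libraries were separate from and above all others, which overlapped (0.45 ± 0.06, adjusted p = 0.00091). Npc2, which carries cholesterol out of lysosomes, ran 229, 211 and 199 CPM in WT, 214, 224 and 217 CPM with vehicle and 290, 292 and 292 CPM with SHP099 (0.45 ± 0.05, adjusted p = 0.00041). The sphingolipid activator precursor Psap (0.83 ± 0.14), the tetraspanin Cd63 (0.41 ± 0.08) and cathepsins Ctsb (0.35 ± 0.10) and Ctsa (0.31 ± 0.07) were new departures too, and the glycosidase subunit Hexa crossed from -0.20 to 0.26 ± 0.06. Ctss, a cathepsin of antigen-presenting cells that is also in the monocyte list, was at 105, 75.9 and 74 CPM in WT, 114, 168 and 122 CPM with vehicle and 172, 236 and 187 CPM with SHP099 (1.22 ± 0.18, adjusted p = 0.0016). The list kept 16 higher members with the length and GC trend removed and 13 without SHP099 replicate 3. The rise of monocyte genes given above accompanied it, and the part of either in the other was not tested.

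The Ctsa promoter is shown as one of the lysosomal promoters with CACGTG, the core of the site bound by TFEB, the factor that induces lysosomal genes. The RefSeq promoter (GRCm38.p6) at chr2:164833523-164833822 (plus strand) holds it at 12 bases before and 5 bases after the start, in capitals; the other annotated Ctsa start has no match.
Ctsa: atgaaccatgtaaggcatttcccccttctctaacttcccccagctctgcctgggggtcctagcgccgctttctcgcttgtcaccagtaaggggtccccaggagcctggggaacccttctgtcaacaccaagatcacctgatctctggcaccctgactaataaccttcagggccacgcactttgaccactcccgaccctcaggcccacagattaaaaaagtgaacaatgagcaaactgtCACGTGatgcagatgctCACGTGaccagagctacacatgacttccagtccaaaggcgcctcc
The hexamer occurred in 33.3% of the promoters of the list (9 of 27), against the 9.73% of all tested genes given above. The same letters serve MYC and TFEB and do not tell them apart.

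Subunits of oxidative phosphorylation encoded in the nucleus showed 18 of 31 tested members higher than WT and 1 lower with SHP099, at a median log2 difference of 0.16, against 3 higher with vehicle. Cox5a, a subunit of cytochrome oxidase, was at 222, 216 and 229 CPM in WT, 212, 229 and 224 CPM with vehicle and 252, 269 and 280 CPM with SHP099 (0.26 ± 0.05, adjusted p = 0.0039). Only the treated libraries stood apart. This count moved with the handling of transcript length. The list's median transcript was 1079 nt, against 3026 nt over all tested genes, and with the length and GC trend removed 5 members were higher and 1 lower, at a median of 0.07, with Cox5a no longer called. Without SHP099 replicate 3, 9 were higher, and 12 without WT replicate 2 or SHP099 replicate 2.

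Transcript length moved with the difference over the whole table. The genes were divided into 4 equal groups by transcript length. In the shortest (61 to 1907 nt), 714 were higher than WT with SHP099 and 276 lower, and in the longest (4553 to 123179 nt) 277 were higher and 887 lower. The imbalance was strongest in newly departing genes, of which 245 were higher and 35 lower in the shortest group and 22 higher and 311 lower in the longest, and their median transcript was 1773 nt among the higher and 5307 nt among the lower ones. For genes still different from WT the counts were 218 and 182 in the shortest group and 190 and 350 in the longest. The comparison of vehicle with WT ran the other way, with 353 higher and 455 lower in the shortest group and 718 and 438 in the longest. Without SHP099 replicate 3 the shortest group had 351 higher and 228 lower genes and the longest 169 and 729. The part of that library's composition in the pattern was not tested. With the trend removed, 659 genes departed newly, 354 higher and 305 lower.

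**Figure D5:**
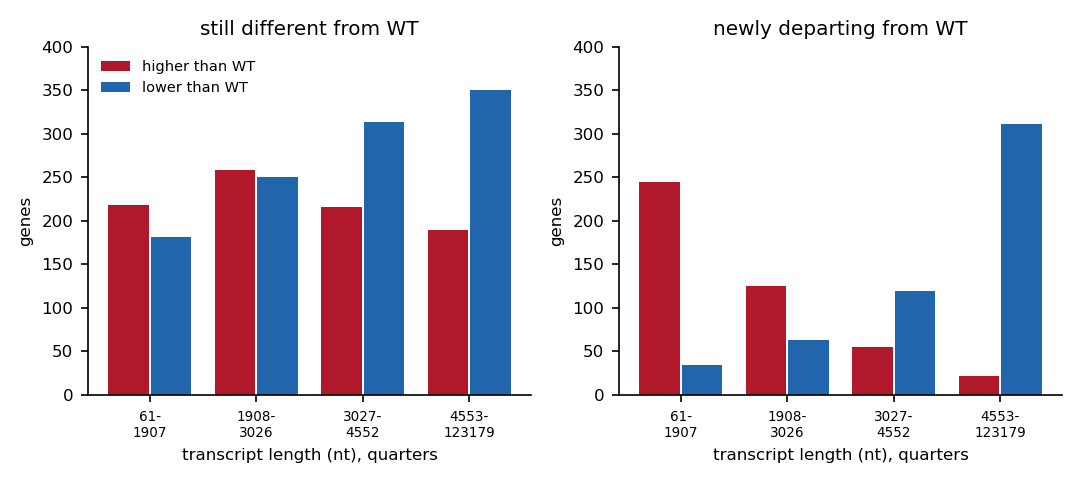
Bars give the number of genes higher (red) and lower (blue) than WT with SHP099 (vertical axis) in 4 equal groups of transcript length in nt (horizontal axis), for genes still different from WT and for newly departing genes. In the newly departing panel the shortest group has 245 higher and 35 lower genes and the longest 22 and 311; in the still-different panel the shortest has 218 and 182 and the longest 190 and 350.

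The largest differences of single genes from WT were in the class still different. Lyz1, one of a pair of lysozyme genes, was at 258, 203 and 346 CPM in WT, 1.49, 1.26 and 0.821 CPM with vehicle and 1.94, 2.39 and 1.41 CPM with SHP099 (-7.12 ± 0.25, adjusted p = 1.4e-06). Its near-identical neighbour Lyz2 overlapped WT with SHP099 (0.12 ± 0.17), and the split of reads between the copies is uncertain. Vill, an actin-binding villin relative, was at 33, 20.2 and 37.6 CPM in WT and 0.199, 0.142 and 0.231 CPM with SHP099 (-7.30 ± 0.38, adjusted p = 1.5e-05). On the higher side, the nucleotide receptor gene P2ry13 was at 6.6, 7.37 and 5.05 CPM in WT, 13.7, 20.3 and 26 CPM with vehicle and 15, 22.5 and 32.3 CPM with SHP099 (1.89 ± 0.31, adjusted p = 0.0022). Both mutant groups lay above WT and overlapped each other. The pseudogene Npm3-ps1 (3.33 ± 0.31) may share reads with its parent gene. No drug step was called for these without the block; with the 6 mutant libraries fitted alone Lyz1 and P2ry13 rose.

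Among genes that moved further away, Cyp4v3, a fatty acid hydroxylase, was at 7.14, 6.4 and 5.89 CPM in WT, 8.85, 9.23 and 8.48 CPM with vehicle and 15.5, 16.1 and 16.3 CPM with SHP099 (1.30 ± 0.08, adjusted p = 3.7e-05). Each step was clear of the one before. Cdh1, E-cadherin, ran 93.1, 84.3 and 102 CPM in WT, 50.6, 44.6 and 62.8 CPM with vehicle and 35.3, 36 and 45.5 CPM with SHP099, where 1 treated library overlapped the vehicle group (-1.26 ± 0.14, adjusted p = 0.00035). The related cadherin Cdh17 (-2.41 ± 0.18) and Gem, a small GTPase (-1.84 ± 0.19), did the same. Among new departures, Csrp3, a muscle LIM protein gene, was at 1.63, 1.76 and 2.84 CPM in WT, 2.47, 2.55 and 3.58 CPM with vehicle and 7.7, 7.46 and 9.25 CPM with SHP099 (1.95 ± 0.22, adjusted p = 0.00049). Malat1, a nuclear long noncoding RNA, was at 303, 286 and 329 CPM in WT, 419, 262 and 319 CPM with vehicle and 140, 136 and 182 CPM with SHP099 (-1.01 ± 0.16, adjusted p = 0.0022). The treated libraries of both lay outside the range of all others. Rnase6, an antimicrobial ribonuclease (1.09 ± 0.10), Gigyf1, a translational repressor (-0.83 ± 0.08), and Slc7a11, the cystine transporter (-0.68 ± 0.08), also departed newly.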

How the data were processed

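Per the labels' protocols, a TruSeq kit for stranded mRNA was used for the 9 libraries. FastQC, STAR, featureCounts, Subread and the build mm10 are named in the submitters' processing notes; which annotation and strand setting the counting used was not given in the sources used here, so reads of overlapping and antisense genes cannot be assigned with certainty. The authors deposited raw counts per gene symbol, 24421 symbols in 9 columns. The column for SHP099 replicate 3 differs from its sample title in the last character and was matched by genotype, number and treatment. Mitochondrially encoded genes were not analysed here.

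Counts were fitted in R 4.3.3 with edgeR 4.0.16: filterByExpr (minimum count 10) kept 13270 genes, TMM factors scaled the library sizes, and all 9 libraries entered 1 quasi-likelihood fit of group means (biological coefficient of variation 9.04%). Every adjusted p is from edgeR's quasi-likelihood test, two-sided, with Benjamini-Hochberg adjustment over all genes of a comparison and a threshold of 0.05. Errors are standard errors of the log2 difference, derived from the test statistic of that fit, with 3 libraries per group. They rest on a spread estimated over all 9 libraries with information shared between genes. The p-values reflect only how these samples spread, which may be technical for WT. Total counts were 27242168 to 40681117 in WT, 30982845 to 41567622 in mutant cells with vehicle and 41053983 to 45810089 with SHP099. Replicates of every group differed by more than sampling noise (chi-square per degree of freedom 10.9 or more). On simulated counts for the comparison with WT (200 of 13270 genes changed, 5 draws), 59.4% of changes of 0.5 and 83% of changes of 1 on the log2 scale were recovered, with 6.39% false calls. The simulated libraries were independent of each other and few genes changed, while 31.7% were called in the real comparison. These shares therefore do not give its error rate.

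The compared groups, gene lists and motifs were chosen with earlier results of these data known. Named genes were Tet2, Flt3 and Ptpn11; the largest differences in each class among called genes whose higher group averaged 5 CPM or more and whose libraries did not overlap, predicted models aside; and list members with the smallest p. Further list members were named for their role after their values were seen. Not every gene that these choices take is reported here. Same-numbered mutant libraries with vehicle and SHP099 deviated together (correlations 0.54, 0.60 and 0.56 across genes), those of WT and SHP099 did not (-0.05, -0.10 and -0.12), so the comparison with WT is unpaired. Lengths and positions came from GENCODE M21 on GRCm38 (23376 symbols matched), promoters from RefSeq on GRCm38.p6. Alternatives were size factors by relative log expression, DESeq2 1.42.0, other filters, the 2 groups alone, a replicate block, removal of the length and GC trend, omission of Rn45s and of each library in turn. The length and GC trend was fitted per library with lowess curves (span 0.3) and entered edgeR as an offset.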

Additional observations from a re-analysis of the deposited data

How the results depend on the processing

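The count of genes called against WT with SHP099, 4209, was 4152 with size factors by relative log expression, 4187 with DESeq2, 4024 without a count filter, 4051 with a CPM filter, 4261 with the replicate block, 4016 with the compared groups alone, 3413 with the length and GC trend removed and 2826 to 4403 when each library was left out. No gene called in both the main and an alternative analysis changed direction. Leaving out a library gave 2879 to 3886 genes for vehicle against WT, 1767 to 2976 for the drug step, 1427 to 1975 still different, 592 to 976 newly departing and 573 to 864 no longer called. SHP099 replicate 3 gave the lowest value for the comparison with WT (2826), the drug step (1767) and new departures (592); without it 634 genes were no longer called, and without vehicle replicates 1 and 3 597 and 573. With the length and GC trend removed 659 genes departed newly, and 617 with the replicate block added, a combination chosen after seeing the data. A replicate block fitted to the 6 mutant libraries alone, chosen after seeing the data, raised the drug step to 5563 genes (2791 higher, 2772 lower), new departures to 1473 and genes no longer called to 1447; a block among mutant libraries within the 9-library fit, also added later, gave 3598, 1145 and 1102. The split of the genes no longer called, 650 higher and 308 lower with vehicle, was 527 and 383 without Rn45s, 529 and 402 with the CPM filter and 534 and 381 with relative log expression. The classes need 3 groups, so the analysis of the compared groups alone was not run for them. Of 230 named genes called, 172 kept their call in all 20 alternatives and 58 lost it in at least 1. The later-added blocks for the drug step are counted among the 20. They left the comparison with WT as in the main analysis, with 4209 genes called, so they could not lose a call. Tet3, at -0.18 in the main analysis, reversed to 0.0075 with the length and GC trend removed and 0.0057 with the block added. The cause of these shifts was not tested.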

Other observations

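Of 11 tested TET, DNMT and IDH genes, Tet2 included, 3 were higher than WT with SHP099 and 5 lower, against 2 and 1 with vehicle. The count was 2 and 3 without SHP099 replicate 3 or WT replicate 2, and 3 and 2 with the length and GC trend removed. The maintenance methyltransferase Dnmt1 was at 569, 564 and 546 CPM in WT, 633, 593 and 605 CPM with vehicle and 527, 483 and 487 CPM with SHP099 (-0.17 ± 0.05), and its partner Uhrf1 was at -0.21 ± 0.04; Dnmt1 lost its call with the length and GC trend removed. Idh2 stayed above WT (0.36 ± 0.05). Of 21 tested NF-kB and inflammatory genes, 9 were lower than WT and 2 higher. The chemokine Ccl3 was at 50.4, 46.4 and 54.9 CPM in WT and 18.2, 19.3 and 23.3 CPM with SHP099 (-1.32 ± 0.13), Ccl4 was at -2.08 ± 0.23, Tnf at -0.72 ± 0.13, and the NF-kB cofactor Nfkbiz moved further from WT (-0.92 ± 0.09). Of 20 tested p53 targets 8 were lower, among them Mdm2 (-0.28 ± 0.03) and the pro-apoptotic Bbc3 (-0.42 ± 0.10), and 1 was higher. In the separate list of 10 tested pro-apoptotic BCL2 family genes 1, the BH3-only gene Bmf (1.09 ± 0.17), was higher, 1 was lower and 8 were not called. With the length and GC trend removed 1 was higher and 0 lower. Of 30 tested interferon response genes 7 were higher and 4 lower. Their share called, 36.7%, was close to the 31.7% of all tested genes. For the other lists of this paragraph the share called was 72.7% (TET, DNMT and IDH), 52.4% (NF-kB and inflammatory), 45% (p53 targets) and 20% (pro-apoptotic).

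Genes near the targeted loci were counted by position in GENCODE M21 on GRCm38. Within 10 Mb of Tet2 on chromosome 3, 58 genes were tested, of which 22 were higher and 7 lower than WT (50%), and 8 (13.8%) differed by more than 2-fold, against 4.09% of all genes. They were Ndst3, Ugt8a, Alpk1, Ddit4l, Mttp, Gbp5, Gbp3 and Gbp2b, chosen for this count after their values were seen. Alpk1 was at 12.1, 10.4 and 11.1 CPM in WT, 41.3, 41.7 and 41.1 CPM with vehicle and 32.7, 31.5 and 30.7 CPM with SHP099 (1.50 ± 0.06). Gbp2b had 0 counts in every WT library, where 3 counts would be 0.0721 to 0.108 CPM, and stood at 1.77, 2.79 and 3.34 CPM with SHP099, at least 16.4-fold higher, comparing the lowest treated library with the highest floor of a WT library; the guanylate-binding protein genes are close copies, and reads may be split among them. Within 10 Mb of Flt3 on chromosome 5, 3 of 144 tested genes (2.08%) differed by more than 2-fold, Fbxo24, Nyap1 and Mtus2, named here after their values were seen. Mtus2 had 2 counts over the 3 WT libraries and 245 over the SHP099 libraries, a ratio of 101 with a 95% counting interval of 27.7 to 840, and stood at 2.34, 0.668 and 2.96 CPM with vehicle and 2.41, 0.545 and 2.9 CPM with SHP099. That interval treats the pooled reads of a group as 1 sample and leaves out the spread between libraries. The alleles and the sequence linked to them cannot be told apart here.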
